A study of Caenorhabditis elegans with 12 samples.

Results

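The whole-animal transcriptomes of Caenorhabditis elegans labelled spr-4;spr-3;daf-2 were compared with those of N2, the wild-type laboratory strain. The comparison takes every library of these groups, 3 that carry the label spr-4;spr-3;daf-2 and 3 of N2, 6 of the 12 libraries in the series. The libraries were taken by label alone, but the comparison was chosen with earlier results of these data known. The other groups, daf-2 alone and the spr-4;spr-3 double mutant with 3 libraries each, entered the same statistical model and are set beside the main comparison. Each library came from 100 whole worms grown at 20 °C, taken 24 h after the L4 larval stage and labelled day 2. The label spr-4;spr-3;daf-2 names 3 genes, daf-2 names the insulin receptor gene alone, spr-4;spr-3 names both spr genes, and N2 carries none of them. The labels give no alleles, no outcrossing and no count of independent lines, so strain background cannot be told apart from the named genes. The libraries labelled spr-4;spr-3;daf-2 are called triple-labelled here, because their spr-3 level, given below, lies near N2, unlike that of the spr-4;spr-3 libraries. An RNA level does not test the genotype.

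DAF-2 is the worm's insulin and insulin-like growth factor receptor. It acts through the phosphatidylinositol kinase AGE-1 and the kinases PDK-1, AKT-1 and AKT-2 to keep the FOXO transcription factor DAF-16 out of the nucleus. When DAF-2 signalling is reduced, DAF-16 enters the nucleus, stress-defence and metabolic genes are raised, and adults live longer. SPR-3 and SPR-4 carry zinc fingers and resemble REST, a mammalian repressor that holds neuronal genes silent in other tissues. The spr genes were found as suppressors of presenilin mutations, and loss of spr genes is known to derepress the presenilin gene hop-1. In bulk RNA from whole worms, fewer cells of a type and less RNA per cell cannot be told apart.

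Levels are given as CPM, counts scaled to a common library total, and not per gene length, and compared between libraries and not between genes. The totals of the 6 compared libraries lay between 32137430 and 48894725 counts, and 15764 of 46739 genes in the table had enough reads to be tested. Triple-labelled and daf-2 libraries lay at one end of the first principal component (59.2% of the variance) and N2 at the other, and the second component (19.4%) separated triple-labelled from daf-2 libraries. Replicates of a group differed by more than counting error in every pair (chi-square per degree of freedom 3.61 to 17.98). Changes are log2 fold changes, triple-labelled over N2, with the standard error (SE) of the edgeR quasi-likelihood fit, and a gene was called when its Benjamini-Hochberg adjusted p was under 0.05. With 3 samples against 3, the exact permutation test used for summed shares cannot give a p below 0.1, and every share compared below has a p of 0.1 unless another is stated.

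The genes named in the genotype were measured first. spr-3 (WBGene00005008, chromosome X, 4514093 to 4516895) had 16.3, 17.7 and 15.2 CPM in the triple-labelled libraries, against 18.2, 17.5 and 16.12 CPM in N2. The ranges overlap, and the log2 fold change was -0.08 ± 0.079 (edgeR adjusted p = 0.39). In the spr double mutant spr-3 was lower, at 8.7, 10.1 and 8.84 CPM, and the triple-labelled libraries exceeded that group by 0.83 ± 0.086 on the log2 scale (edgeR adjusted p = 6.9e-08). spr-4 (WBGene00005009, chromosome I, 8103596 to 8109228) had 64.3, 61 and 58 CPM in the triple-labelled libraries, against 75, 75.1 and 78.1 CPM in N2 (log2 change -0.32 ± 0.044, edgeR adjusted p = 1.8e-06). All 3 triple-labelled libraries lay below all 3 N2 libraries for spr-4. daf-2 (WBGene00000898, chromosome III, 2994514 to 3040846) had 96.7, 87.2 and 87.5 CPM in the triple-labelled libraries, against 92.7, 96.3 and 95 CPM in N2, with overlapping groups and no call (log2 fold change -0.06, edgeR adjusted p = 0.38). A count over a whole gene checks neither a point mutation nor a small deletion. These values therefore do not test the daf-2 label, nor whether spr-3 or spr-4 is mutated. hop-1 was lower at 54.3, 55.7 and 55.9 CPM in the triple-labelled libraries, against 59.7, 59.3 and 60.9 CPM in N2 (log2 fold change -0.12 ± 0.041, edgeR adjusted p = 0.016). With triple-labelled replicate 1 left out the edgeR adjusted p of hop-1 was 0.082, and with N2 replicate 3 left out it was 0.074. In the spr double mutant hop-1 had 62.97, 63.15 and 63.91 CPM and was not called against N2 (log2 fold change 0.079 ± 0.041, edgeR adjusted p = 0.123). The triple-labelled libraries lay below the double mutant for hop-1 (log2 fold change -0.196 ± 0.041, edgeR adjusted p = 0.000498). Against N2, 7 of all 9 spr genes and CoREST partners were lower and 0 higher in the triple-labelled libraries. The histone demethylase genes spr-5 (log2 change -0.48 ± 0.044) and lsd-1 (log2 change -0.44 ± 0.074) showed the largest changes. Of 12 presenilin and Notch pathway genes 9 were lower and 1 higher, among them the Notch receptor gene glp-1 (log2 change -0.51 ± 0.039) and the Notch effector gene lag-1 (log2 change -0.54 ± 0.045).

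More genes differed in this comparison than stayed below the threshold. edgeR called 10829 of the 15764 tested genes (68.7%), 5586 higher (35.4%) and 5243 lower (33.3%) in the triple-labelled libraries. The 2 groups did not overlap for 11501 genes (73%). Most calls were small, with a median absolute log2 fold change of 0.60 among called genes. Calls over 2-fold numbered 2196 higher (13.9%) and 1208 lower (7.66%), the lower ones 716 when 1 CPM or more in 3 libraries was required. Past 4-fold 627 genes were higher and 465 lower. Changes over 16-fold were found in 116 genes on the higher side and 95 on the lower side. The median log2 fold change of all tested genes was 0.02, so a list is read against a background in which about 1 gene in 3 is called in each direction. For the related contrasts, triple-labelled against daf-2 called 26.1% of genes higher and 20.9% lower, and triple-labelled against the spr double mutant called 25.8% higher and 23.5% lower. Against N2, daf-2 had 27.4% of genes higher and 26.9% lower, and the spr double mutant had 24.6% higher and 21.9% lower. These contrasts share libraries, so their counts are given side by side and not as separate evidence. Where a list below has 0 members called in one direction against N2, none passed at an unadjusted p under 0.05 in edgeR either, and none was called by DESeq2 or limma-voom. A gene of few reads can pass the filter through the group where it is high, so a tally says little of members left untested.

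**Figure D1:**
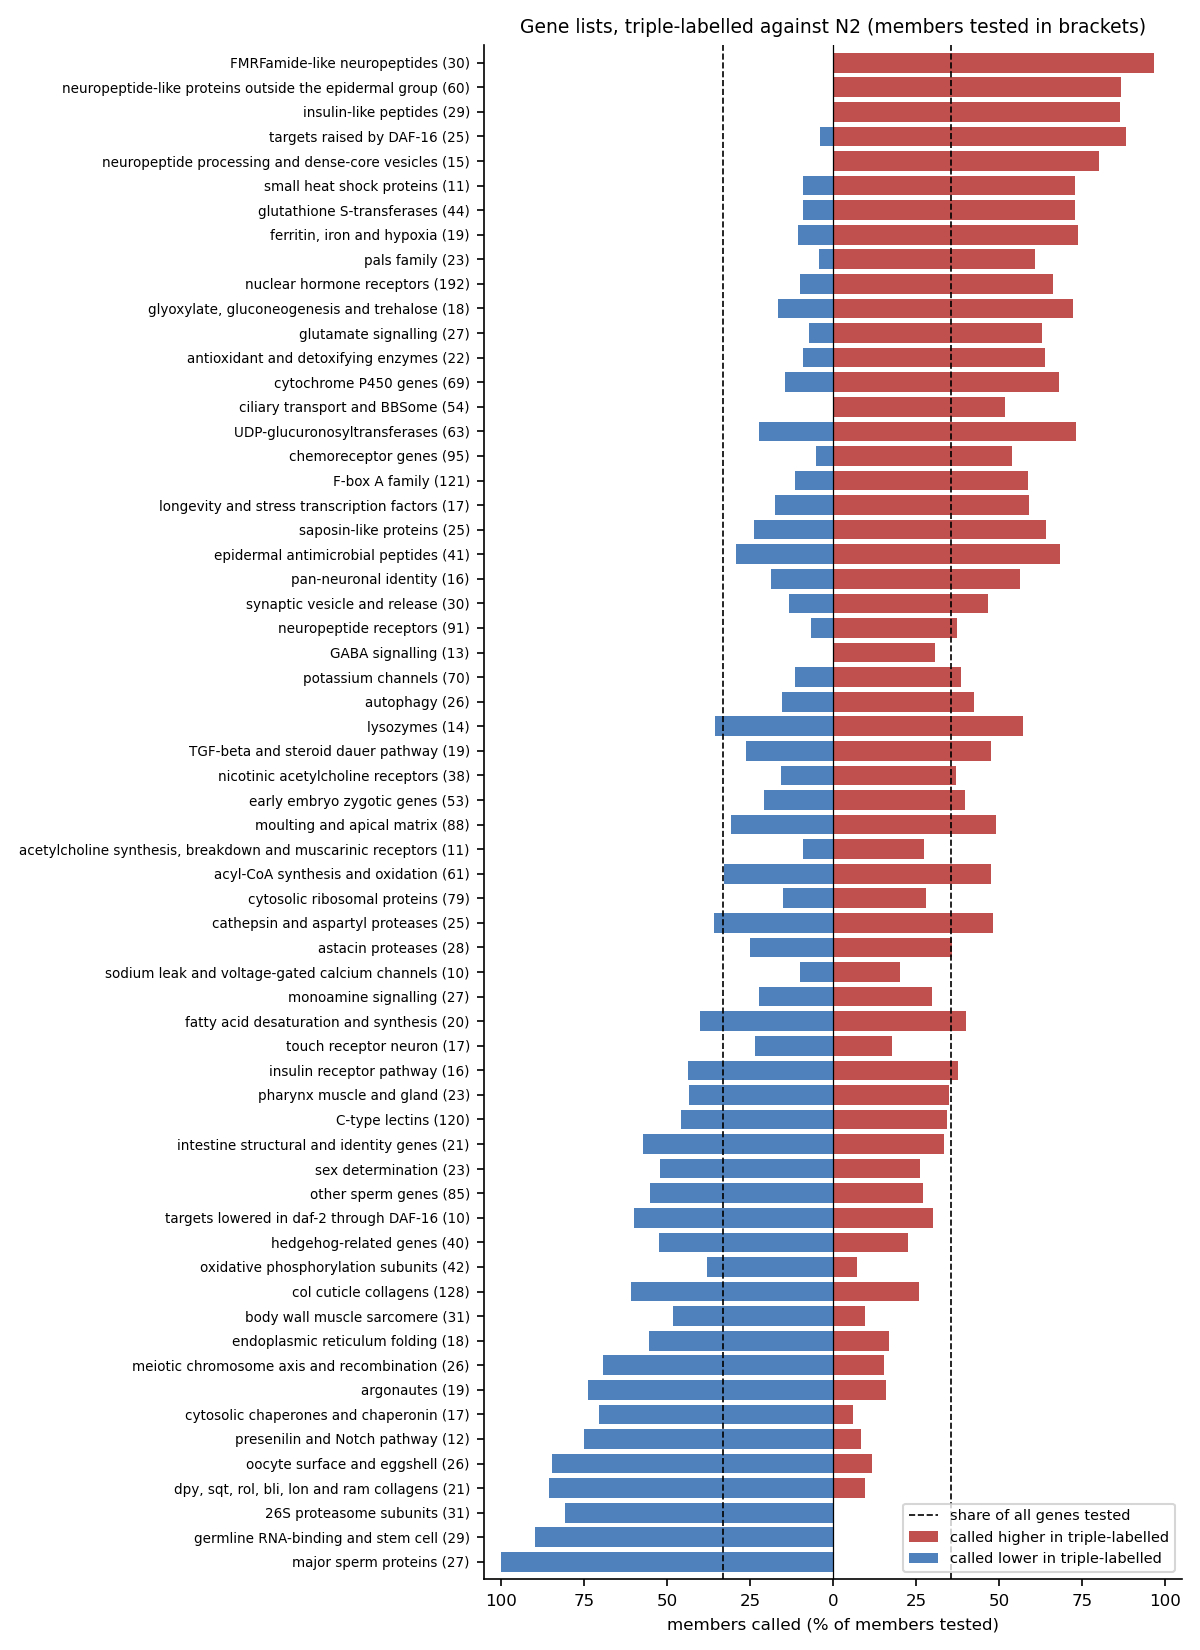
Share of each gene list called higher (red, to the right) or lower (blue, to the left) in triple-labelled libraries against N2, as a percentage of the members tested, for lists with 10 or more tested members. The dashed lines are the shares over all 15764 tested genes, 35.4% higher and 33.3% lower. FMRFamide-like neuropeptides, other neuropeptides and insulin-like peptides reach far past the line on the higher side with no member lower, and major sperm proteins, germline RNA-binding genes and proteasome subunits have no member higher.

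The genes described next are among the widest called changes with a gene symbol and an average log2 CPM of 1 or more. Below that level, cyp-13A11, a cytochrome P450 gene, had 283 reads over the triple-labelled libraries and 1 over N2, a ratio of 281 (95% counting interval 50.1 to 11152). Of the 95 genes that fell over 16-fold, 37 have symbols that begin with col, dpy, sqt, rol, bli, lon or ram. The match was by symbol alone, so it can include genes that are not cuticle genes. The share of all tested genes with such symbols is not given. The lists of cuticle genes used below hold 128 tested col genes and 21 tested shape genes. rol-1 (WBGene00004394, chromosome II, 12172573 to 12176069) had 0.0233, 0.0798 and 0.0244 CPM in the triple-labelled libraries, against 9.71, 8.43 and 7.16 CPM in N2 (log2 change -7.57 ± 0.60, edgeR adjusted p = 9.8e-07). col-17 (WBGene00000606, chromosome II, 4866436 to 4867576) had 0.186, 0.426 and 0.171 CPM in the triple-labelled libraries, against 41.3, 36.4 and 30.5 CPM in N2 (log2 change -7.13 ± 0.23, edgeR adjusted p = 5.8e-13). col-73 had 0.14, 0.186 and 0.122 CPM in the triple-labelled libraries, against 35.2, 26.8 and 23.9 CPM in N2 (log2 change -7.57 ± 0.65, edgeR adjusted p = 7.5e-06). On the rising side scl-24 (WBGene00008575, chromosome V, 17486334 to 17487241), a relative of scl-20, had 7.22, 4.68 and 6.3 CPM in the triple-labelled libraries, against 0.179, 0.0904 and 0.0807 CPM in N2 (log2 change 5.58 ± 0.46, edgeR adjusted p = 2.9e-07). spp-20, a saposin-like gene, rose too (log2 change 5.46 ± 0.29, edgeR adjusted p = 4.7e-10). pqn-73, named for a stretch rich in glutamine and asparagine, had 8.34, 8.36 and 9.08 CPM in the triple-labelled libraries, against 0.198, 0.241 and 0.108 CPM in N2 (log2 change 5.53 ± 0.28, edgeR adjusted p = 7.1e-12). For these rises and falls, groups that do not overlap were a condition of the choice. Among the largest gains in CPM, far-2, a secreted fatty acid and retinol binding protein, had 5101, 5269 and 5377 CPM in the triple-labelled libraries, against 3240.2, 3266 and 3525 CPM in N2 (log2 change 0.65 ± 0.056, edgeR adjusted p = 1.5e-09). asp-6, an aspartyl protease, had 3012, 2998 and 2876 CPM in the triple-labelled libraries, against 1626, 1689.6 and 1729 CPM in N2 (log2 change 0.82 ± 0.051, edgeR adjusted p = 8e-12). ule-3, known from the uterus, had 1345, 1421 and 1500.1 CPM in the triple-labelled libraries, against 583, 577 and 631 CPM in N2 (log2 change 1.25 ± 0.053, edgeR adjusted p = 1.4e-14). Among the largest losses were cgh-1, a germline RNA helicase, with 2258, 2213 and 1971 CPM in the triple-labelled libraries, against 2827, 2932 and 2988 CPM in N2 (log2 change -0.44 ± 0.055, edgeR adjusted p = 3.9e-07), cbd-1, an eggshell protein, with 923, 868 and 879 CPM in the triple-labelled libraries, against 1455, 1423 and 1371 CPM in N2 (log2 change -0.67 ± 0.047, edgeR adjusted p = 5.3e-11), and hsp-90, a cytosolic chaperone, with 2011, 2031 and 2032 CPM in the triple-labelled libraries, against 2533, 2455 and 2456 CPM in N2 (log2 change -0.29 ± 0.044, edgeR adjusted p = 4.7e-06). The CPM gains and losses were ranked without that condition, and their groups did not overlap, as for 73% of all tested genes.

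Known DAF-16 targets of the raised kind were higher in the triple-labelled worms almost throughout. Of 25 tested targets 22 rose, 1 fell and 18 rose over 2-fold, with a median log2 fold change of 2.15. Together the targets took 0.452%, 0.467% and 0.499% of all counts in the triple-labelled libraries, against 0.124%, 0.123% and 0.132% in N2, a 3.75-fold difference. mtl-1 (WBGene00003473, chromosome V, 6691371 to 6691863), a metal-binding metallothionein, had 164, 183 and 184 CPM in the triple-labelled libraries, against 12.9, 11.4 and 11.5 CPM in N2 (log2 change 3.89 ± 0.17, edgeR adjusted p = 4.6e-08). The superoxide dismutase gene sod-3 (WBGene00004932, chromosome X, 17092753 to 17094306) had 22.8, 21.5 and 21.9 CPM in the triple-labelled libraries, against 3.1, 3.13 and 3.26 CPM in N2 (log2 change 2.80 ± 0.11, edgeR adjusted p = 1.7e-14). Neither gene's groups come near each other. dod-3 (WBGene00016052, chromosome V, 2730622 to 2731098), named as a gene downstream of DAF-16, had 50.9, 53.4 and 56.4 CPM in the triple-labelled libraries, against 3.87, 3.73 and 4.17 CPM in N2 (log2 change 3.77 ± 0.15, edgeR adjusted p = 6.1e-10). nnt-1 (WBGene00003778, chromosome X, 6122311 to 6127554), a mitochondrial transhydrogenase that makes NADPH, had 53.8, 54.4 and 48 CPM in the triple-labelled libraries, against 4.19, 4.61 and 5.49 CPM in N2 (log2 change 3.46 ± 0.12, edgeR adjusted p = 5.7e-12). scl-20 (WBGene00013972, chromosome V, 18732798 to 18734481), of a family of secreted cysteine-rich proteins, had 15.6, 8.17 and 13.3 CPM in the triple-labelled libraries, against 0.278, 0.151 and 0.404 CPM in N2 (log2 change 5.45 ± 0.71, edgeR adjusted p = 0.00013), and its triple-labelled replicate 2 stood lowest in its group. The exceptions, named because they are few, were the water and glycerol channel gene aqp-1, which fell (log2 change -0.88 ± 0.11), and a gene of the hsp-16 family and old-1, which did not pass (log2 changes 0.68 and -0.36).

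For several targets the triple-labelled level also stood above that of daf-2 alone. Against daf-2, 12 of the 25 targets were higher and 1 lower, and against the spr double mutant 20 were higher and 2 lower. mtl-1 had 103.4, 99.9 and 98.5 CPM in daf-2 and 22.2, 38.6 and 28.9 CPM in the spr double mutant. Its level in the triple-labelled libraries exceeded daf-2 by 0.82 ± 0.14 (edgeR adjusted p = 0.0016). sod-3 went the other way, -0.24 against daf-2 (edgeR adjusted p = 0.035), with daf-2 libraries at 28.3, 25.9 and 23.9 CPM and spr double mutant libraries at 3.44, 5.48 and 3.88 CPM. dod-3 and scl-20 did not pass against daf-2 (log2 fold changes 0.15 and 0.02). Taken over N2, the same target list was higher in 20 members and lower in 1 in daf-2, and higher in 17 and lower in 2 in the spr double mutant. The median over the list was 1.66 in daf-2 and 0.78 in the spr double mutant.

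Genes that fall in daf-2 mutants through DAF-16 gave a mixed list of 10, of which 6 fell, 3 rose and 1 did not pass. dod-24 (WBGene00007875, chromosome IV, 12940106 to 12941354) had 3.22, 2.79 and 2.83 CPM in the triple-labelled libraries, against 36.8, 35.2 and 34.8 CPM in N2 (log2 change -3.59 ± 0.086, edgeR adjusted p = 1.2e-17). The intestinal peptide transporter gene pept-1 (WBGene00003877, chromosome X, 6456872 to 6461767) had 14, 12.1 and 10.04 CPM in the triple-labelled libraries, against 89.1, 84 and 74.1 CPM in N2 (log2 change -2.77 ± 0.12, edgeR adjusted p = 1.8e-09). dod-23 had 29.7, 30.5 and 28.4 CPM in the triple-labelled libraries, against 151, 149 and 163 CPM in N2 (log2 change -2.38 ± 0.067, edgeR adjusted p = 1.2e-14). All 3 genes were lower in every triple-labelled library than in any N2 library. The risers were gcy-18 (log2 change 0.80), a guanylyl cyclase of thermosensory neurons, the insulin-like peptide gene ins-7 (log2 change 0.38) and dod-19 (log2 change 0.30), named here because they are the exceptions. ins-7 was also higher in the spr double mutant (log2 change 0.91), and its log2 fold change in daf-2 was -0.41.

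**Figure D2:**
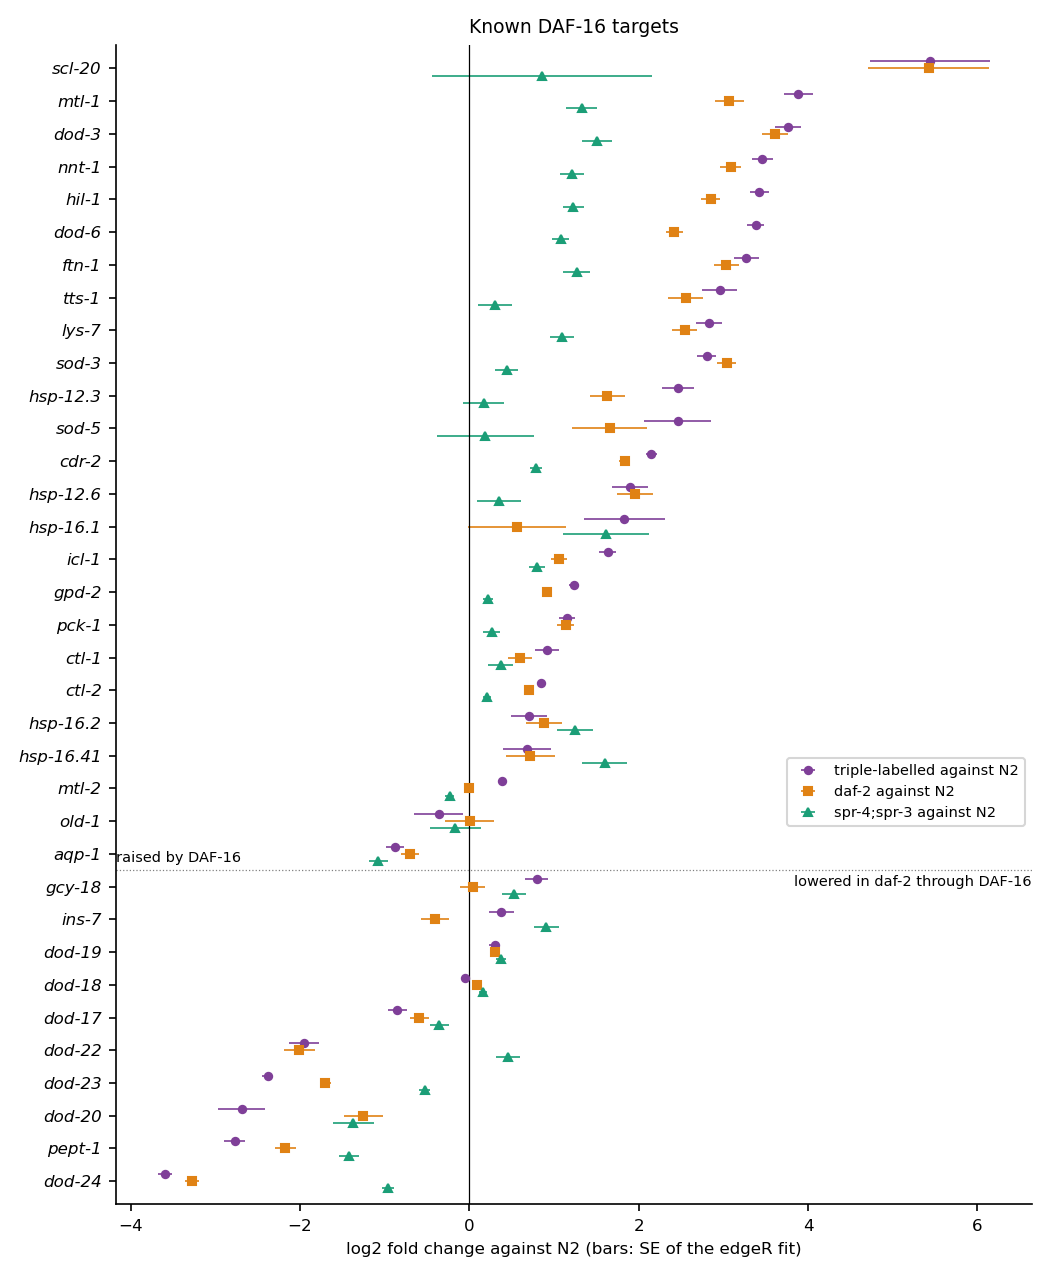
Log2 fold changes against N2 of known DAF-16 targets in triple-labelled (purple circles), daf-2 (orange squares) and spr-4;spr-3 (green triangles) libraries, with bars for the SE of the edgeR fit. Targets raised by DAF-16 stand above the dotted line and targets lowered through it stand below, each sorted by the triple-labelled value. For most raised targets the purple and orange points lie well to the right of the green ones, and mtl-1, dod-6 and hil-1 lie further right in triple-labelled than in daf-2 libraries.

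The ligands of the pathway were higher in most of the family. Insulin-like peptides are small secreted proteins, some of which activate DAF-2 and some of which oppose it. Of 39 genes listed 29 passed the filter on low counts, and of these 25 were higher and 0 lower, 19 of them over 2-fold. The tally says little of the 10 genes below the filter. Genes near it, such as ins-25 below, passed through the libraries where they were high. The summed share of counts was 0.00859%, 0.00853% and 0.00853% in triple-labelled libraries, against 0.00391%, 0.0039% and 0.00405% in N2. ins-23 (WBGene00002106, chromosome III, 10028247 to 10028697) had 2.75, 2.5 and 3.25 CPM in the triple-labelled libraries, against 0.139, 0.271 and 0.269 CPM in N2 (log2 change 3.69 ± 0.23, edgeR adjusted p = 7.2e-12). ins-22 (WBGene00002105, chromosome III, 10026289 to 10026686) had 5.08, 5.19 and 3.88 CPM in the triple-labelled libraries, against 0.695, 0.572 and 0.673 CPM in N2 (log2 change 2.85 ± 0.17, edgeR adjusted p = 5.7e-12). ins-10 (WBGene00002093, chromosome V, 14033949 to 14034396) had 3.1, 2.55 and 2.34 CPM in the triple-labelled libraries, against 0.159, 0.211 and 0.188 CPM in N2 (log2 change 3.85 ± 0.24, edgeR adjusted p = 8.3e-12), but it overlaps an exon of vps-39 on the opposite strand by 74 bases and the strand setting of the counting is not given. ins-25 had 59 reads over the triple-labelled libraries and 1 read over N2, a ratio of 58.7 (95% counting interval 10.1 to 2356). The neighbouring genes ins-24 to ins-30 lie between 14012369 and 14037777 on chromosome I, and all 7 were higher. This cluster was picked out after its values were seen. Against daf-2 7 of the 29 tested genes were higher and 1 lower, with 26.1% of all tested genes higher in that contrast. Against the spr double mutant 21 were higher and 1 lower, with 25.8% of all tested genes higher.

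Inside the cell, 6 of 16 members of the insulin receptor pathway were higher and 7 lower, against 35.4% higher and 33.3% lower over all tested genes. The list was thus close to the background on the higher side. akt-2 (WBGene00000103, chromosome X, 14147700 to 14152070), a kinase that phosphorylates DAF-16, had 44.4, 46.1 and 48 CPM in the triple-labelled libraries, against 13.4, 13.6 and 15.2 CPM in N2 (log2 change 1.72 ± 0.10, edgeR adjusted p = 1.1e-09). ist-1, an insulin receptor substrate homologue, had 13, 10.8 and 11.3 CPM in the triple-labelled libraries, against 5.08, 5.15 and 4.74 CPM in N2 (log2 change 1.23 ± 0.11, edgeR adjusted p = 1.5e-09). The kinase gene pdk-1 was higher by 0.67 ± 0.079. These genes were higher in every triple-labelled library than in any N2 library. Among the fallers, daf-16 itself (WBGene00000912, chromosome I, 10750498 to 10776703) had 126, 129.9 and 128 CPM in the triple-labelled libraries, against 153, 149 and 147 CPM in N2 (log2 change -0.23 ± 0.048, edgeR adjusted p = 0.00027). The phosphatidylinositol kinase gene age-1 fell by 0.36 on the log2 scale. In the transforming growth factor beta and steroid dauer pathways 9 of 19 genes were higher and 5 lower. The sterol methyltransferase gene strm-1 had 5.73, 5.99 and 6.47 CPM in the triple-labelled libraries, against 1.67, 1.78 and 1.72 CPM in N2 (log2 change 1.82 ± 0.14, edgeR adjusted p = 1.8e-10), the SMAD genes daf-8 and daf-14 rose (log2 changes 0.90 and 0.83), and daf-36, an oxygenase of dafachronic acid synthesis, fell (log2 change -1.08 ± 0.085).

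Among 17 longevity and stress transcription factors 10 were higher and 3 lower. pqm-1, a zinc-finger factor that acts in opposition to DAF-16 in the nucleus, had 55.3, 59.7 and 59.1 CPM in the triple-labelled libraries, against 25.5, 26.4 and 28.4 CPM in N2 (log2 change 1.12 ± 0.077, edgeR adjusted p = 9.7e-10). mdl-1, a MAD-like factor, had 70.01, 66.7 and 66.7 CPM in the triple-labelled libraries, against 32.1, 35.2 and 29.3 CPM in N2 (log2 change 1.08 ± 0.060, edgeR adjusted p = 2.9e-12). The FoxA gene pha-4 (log2 change 0.53 ± 0.10) and xbp-1 (log2 change 0.52 ± 0.043), the factor of the endoplasmic reticulum stress response, rose less. The 3 that fell, daf-16, elt-2 (log2 change -0.20) and hsf-1 (log2 change -0.18), all changed by under 0.25 on the log2 scale.

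Defence against oxidants and foreign compounds was higher in most families. Antioxidant enzymes were higher in 14 of 22 members and lower in 2, glutathione S-transferases were higher in 32 of 44 and lower in 4, UDP-glucuronosyltransferases were higher in 46 of 63 and lower in 14, and cytochrome P450 genes were higher in 47 of 69 and lower in 10. cyp-35B1 (WBGene00019472, chromosome V, 3939032 to 3941237) had 34.2, 27.6 and 32.6 CPM in the triple-labelled libraries, against 2.18, 2.23 and 3.2 CPM in N2 (log2 change 3.64 ± 0.23, edgeR adjusted p = 1.8e-07). ugt-18 (WBGene00013900, chromosome V, 12820260 to 12822778) had 29.8, 26.1 and 28.5 CPM in the triple-labelled libraries, against 1.87, 2.41 and 2.69 CPM in N2 (log2 change 3.62 ± 0.28, edgeR adjusted p = 1.8e-06). gst-4 had 193, 176 and 178 CPM in the triple-labelled libraries, against 39.2, 41.3 and 47.7 CPM in N2 (log2 change 2.1 ± 0.068, edgeR adjusted p = 2.4e-13), with 65 bases of exon shared with dhs-12 on the same strand. All 3 were higher in every triple-labelled library. The exceptions include msra-1, a methionine sulphoxide reductase, which had 27.4, 27.5 and 23.3 CPM in the triple-labelled libraries, against 119.6, 111 and 95.8 CPM in N2 (log2 change -2.06 ± 0.17, edgeR adjusted p = 6.3e-06), and ugt-53, which fell by 2.83 on the log2 scale. Genes of iron and hypoxia were higher in 14 of 19, including the ferritin gene ftn-1 with 76.7, 76.4 and 72.7 CPM in the triple-labelled libraries, against 7.36, 7.11 and 8.96 CPM in N2 (log2 change 3.27 ± 0.15, edgeR adjusted p = 1e-08). Nuclear hormone receptor genes were higher in 127 of 192 tested members and lower in 19, with 77 of the 269 listed below the filter. nhr-114, which fell, had 10.4, 10.5 and 10.1 CPM in the triple-labelled libraries, against 67.1, 62.1 and 52 CPM in N2 (log2 change -2.55 ± 0.11, edgeR adjusted p = 9e-11).

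The heat shock proteins split by family. Of 11 small heat shock protein genes 8 were higher and 1 lower, and their summed share was 0.206%, 0.214% and 0.22% of counts in triple-labelled libraries, against 0.114%, 0.11% and 0.109% in N2. Most of this share, and of the difference between the groups, came from sip-1 alone. sip-1 (WBGene00004798, chromosome III, 10506106 to 10506801), a small heat shock protein of oocytes and embryos, had 1761, 1848 and 1865 CPM in the triple-labelled libraries, against 903, 863 and 859.5 CPM in N2 (log2 change 1.06 ± 0.059, edgeR adjusted p = 1.2e-12). hsp-12.3 had 8.04, 7.05 and 7.77 CPM in the triple-labelled libraries, against 1.37, 1.36 and 1.4 CPM in N2 (log2 change 2.47 ± 0.19, edgeR adjusted p = 2e-09). hsp-70 (WBGene00002026, chromosome I, 9320325 to 9322519), a heat-inducible cytosolic chaperone, had 57.2, 72 and 66.9 CPM in the triple-labelled libraries, against 5.0, 4.31 and 5.22 CPM in N2 (log2 change 3.75 ± 0.19, edgeR adjusted p = 7.5e-08). It was the single gene called higher among 17 cytosolic chaperones, of which 12 were lower. The subunits of the CCT chaperonin, which folds actin and tubulin, were lower in 8 of 8 genes with a median of -0.39, and cct-3 had 221, 235.3 and 220.1 CPM in the triple-labelled libraries, against 335, 336 and 315 CPM in N2 (log2 change -0.54 ± 0.047, edgeR adjusted p = 1.4e-09). hsp-70 was higher in the triple-labelled libraries than in daf-2 (log2 change 1.24 ± 0.16) and than in the spr double mutant (log2 change 1.44 ± 0.16), whose libraries held 29.4, 23.7 and 29.9 CPM in daf-2 and 17.7, 27.3 and 27.1 CPM in the double mutant. Chaperones of the endoplasmic reticulum were lower in 10 of 18 and higher in 3, with the disulphide isomerase gene pdi-2 at -0.57 ± 0.055 and hsp-3, a BiP homologue, at -0.51 ± 0.047.

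The 26S proteasome, which degrades ubiquitin-tagged proteins, was lower by a small and even amount. Of 31 subunit genes 25 were lower and 0 higher, with every value between -0.43 and -0.08 and a median of -0.23. The summed share of counts was 0.701%, 0.70% and 0.698% in triple-labelled libraries, against 0.835%, 0.829% and 0.816% in N2, with no overlap. pbs-5 (WBGene00003951, chromosome I, 14719167 to 14720477), a catalytic core subunit, had 136, 139.7 and 132 CPM in the triple-labelled libraries, against 189.7, 179.7 and 178 CPM in N2 (log2 change -0.43 ± 0.044, edgeR adjusted p = 2.7e-08). pas-2, a subunit of the outer core ring, had 156, 154 and 148 CPM in the triple-labelled libraries, against 204, 199.5 and 189 CPM in N2 (log2 change -0.37 ± 0.041, edgeR adjusted p = 6.4e-08). Against daf-2 30 of 31 subunits were lower, and against the spr double mutant all 31 were, with medians of -0.19 and -0.21. Over N2 the daf-2 libraries had 5 subunits lower and the spr double mutant 8 lower and 1 higher. Autophagy genes were higher in 11 of 26 and lower in 4, with a median of 0.05, against 35.4% higher and 33.3% lower over all tested genes. Their largest rise was in sqst-1 (WBGene00011737, chromosome IV, 12034282 to 12036891), the p62 cargo receptor, with 201, 209.9 and 202 CPM in the triple-labelled libraries, against 64.9, 68.2 and 79.8 CPM in N2 (log2 change 1.53 ± 0.080, edgeR adjusted p = 1.6e-09). lgg-1, the ATG8 homologue that coats autophagosomes, had 553, 579 and 576 CPM in the triple-labelled libraries, against 302, 309 and 317 CPM in N2 (log2 change 0.88 ± 0.046, edgeR adjusted p = 3.7e-13). Cytosolic ribosomal protein genes were higher in 22 of 79 and lower in 12, both shares under the background, with rpl-12 (log2 change -0.59 ± 0.056) and rpl-7A (log2 change -0.57 ± 0.050) among the fallers and rpl-25.1 (log2 change 0.53 ± 0.062) among the risers. The higher count became 40 when the 6 compared libraries were fitted alone, and 36 and 35 without daf-2 replicate 1 or replicate 3. Oxidative phosphorylation subunits were lower in 16 of 42, near the background on that side, and higher in 3, within 0.42 of zero on the log2 scale.

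Carbohydrate and fat metabolism lists differed in how far they stood from the background. Glyoxylate cycle, gluconeogenesis and trehalose genes were higher in 13 of 18 members and lower in 3. icl-1 (WBGene00001564, chromosome V, 724332 to 728004), the bifunctional enzyme that turns fat-derived acetate into sugar precursors, had 1004, 1001 and 1135 CPM in the triple-labelled libraries, against 308, 312 and 390.5 CPM in N2 (log2 change 1.64 ± 0.099, edgeR adjusted p = 2e-08). The trehalose synthase gene tps-2 had 219.7, 206 and 195 CPM in the triple-labelled libraries, against 67.1, 66 and 84.3 CPM in N2 (log2 change 1.51 ± 0.11, edgeR adjusted p = 5.4e-07). gpd-2, a glyceraldehyde phosphate dehydrogenase, had 458, 426 and 414 CPM in the triple-labelled libraries, against 181, 179.9 and 191 CPM in N2 (log2 change 1.23 ± 0.060, edgeR adjusted p = 1.1e-12). Their groups did not overlap. Fatty acid desaturation and synthesis had 8 genes higher and 8 lower of 20, near the 35.4% higher and 33.3% lower over all tested genes. The delta-9 desaturase gene fat-5 (WBGene00001397, chromosome V, 17725004 to 17726818) had 216, 189 and 209 CPM in the triple-labelled libraries, against 29.4, 28.5 and 35.4 CPM in N2 (log2 change 2.72 ± 0.088, edgeR adjusted p = 1.8e-11), while fat-7 (WBGene00001399, chromosome V, 7151353 to 7153146), which acts on the same kind of bond, had 36.1, 27.8 and 28 CPM in the triple-labelled libraries, against 119.1, 131 and 144 CPM in N2 (log2 change -2.1 ± 0.15, edgeR adjusted p = 1.4e-06). fat-7 stood at 26.6, 22 and 24.8 CPM in daf-2 and 191, 150.3 and 144 CPM in the spr double mutant, and the triple-labelled libraries did not differ from daf-2 past the threshold (log2 change 0.32 ± 0.16, edgeR adjusted p = 0.13). The delta-12 desaturase gene fat-2 had 1671, 1724 and 1610.1 CPM in the triple-labelled libraries, against 681, 690.2 and 706 CPM in N2 (log2 change 1.27 ± 0.047, edgeR adjusted p = 2e-15). elo-2, a fatty acid elongase, had 32.7, 33.7 and 26.3 CPM in the triple-labelled libraries, against 100.3, 92.6 and 79.1 CPM in N2 (log2 change -1.56 ± 0.13, edgeR adjusted p = 3.1e-06).

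Of 7 lysosomal lipase genes 5 rose and 1 fell, with lipl-1 at 10.6, 13.7 and 11.7 CPM in the triple-labelled libraries, against 1.57, 1.33 and 1.61 CPM in N2 (log2 change 2.98 ± 0.17, edgeR adjusted p = 5.5e-11) and lipl-4, whose overexpression is known to lengthen worm life, at 6.22, 8.6 and 8.67 CPM in the triple-labelled libraries, against 0.853, 1.45 and 1.4 CPM in N2 (log2 change 2.70 ± 0.20, edgeR adjusted p = 1.4e-09). The share of counts on the lipases together was 0.0147%, 0.0133% and 0.0131% in triple-labelled libraries, against 0.0186%, 0.0171% and 0.0163% in N2, lower in every triple-labelled library although 5 of the genes rose. lipl-5, the 1 that fell, changed by -0.99 on the log2 scale. Acyl-CoA synthesis and oxidation genes were higher in 29 of 61 and lower in 20, near the background of 33.3% on the lower side. Their share of counts was 0.542% ± 0.00549 in triple-labelled libraries and 0.538% ± 0.0112 in N2 (SD, n = 3 each, exact permutation p = 0.8). The acyl-CoA synthetase gene acs-2 (WBGene00009221, chromosome V, 15567394 to 15569897) had 94.2, 74.7 and 100.2 CPM in the triple-labelled libraries, against 14, 13.2 and 14.2 CPM in N2 (log2 change 2.70 ± 0.15, edgeR adjusted p = 9.4e-08). acox-1.2, a peroxisomal acyl-CoA oxidase, had 4.52, 3.38 and 3.81 CPM in the triple-labelled libraries, against 27.4, 23.5 and 21.8 CPM in N2 (log2 change -2.63 ± 0.10, edgeR adjusted p = 5e-15). acs-2 was also above daf-2 (log2 change 1.56 ± 0.14) and above the spr double mutant (log2 change 2.58 ± 0.15).

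The yolk genes separated into a pair that rose and a trio that fell. Vitellogenins are made in the intestine and carried to oocytes. vit-2 (WBGene00006926, chromosome X, 5101042 to 5106169) had 37310.5, 38474 and 35210.5 CPM in the triple-labelled libraries, against 27485, 29477 and 32129 CPM in N2 (log2 change 0.32 ± 0.067, edgeR adjusted p = 0.00028). vit-6 had 33718, 33823 and 31387 CPM in the triple-labelled libraries, against 24564, 26894 and 28269.7 CPM in N2 (log2 change 0.31 ± 0.064, edgeR adjusted p = 0.00022). vit-1 (WBGene00006925, chromosome X, 7727889 to 7733168) had 584, 626 and 475 CPM in the triple-labelled libraries, against 3074, 2965 and 2738 CPM in N2 (log2 change -2.38 ± 0.099, edgeR adjusted p = 8.1e-11). vit-3 (log2 change -0.72 ± 0.069) and vit-4 (log2 change -1.19 ± 0.077) were lower as well, and every triple-labelled library lay below every N2 library for the 3 genes that fell. Some vit genes are close in sequence, and the handling of reads with several matches is not stated, so single vit values are uncertain. The 6 vitellogenin genes took 9.05%, 9.24% and 8.55% of all counts in triple-labelled libraries, against 7.74%, 8.3% and 8.74% in N2, ranges that overlap (exact permutation p = 0.2). Against daf-2 and the spr double mutant 4 and 5 of the 6 were lower and none was higher by edgeR.

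**Figure D3:**
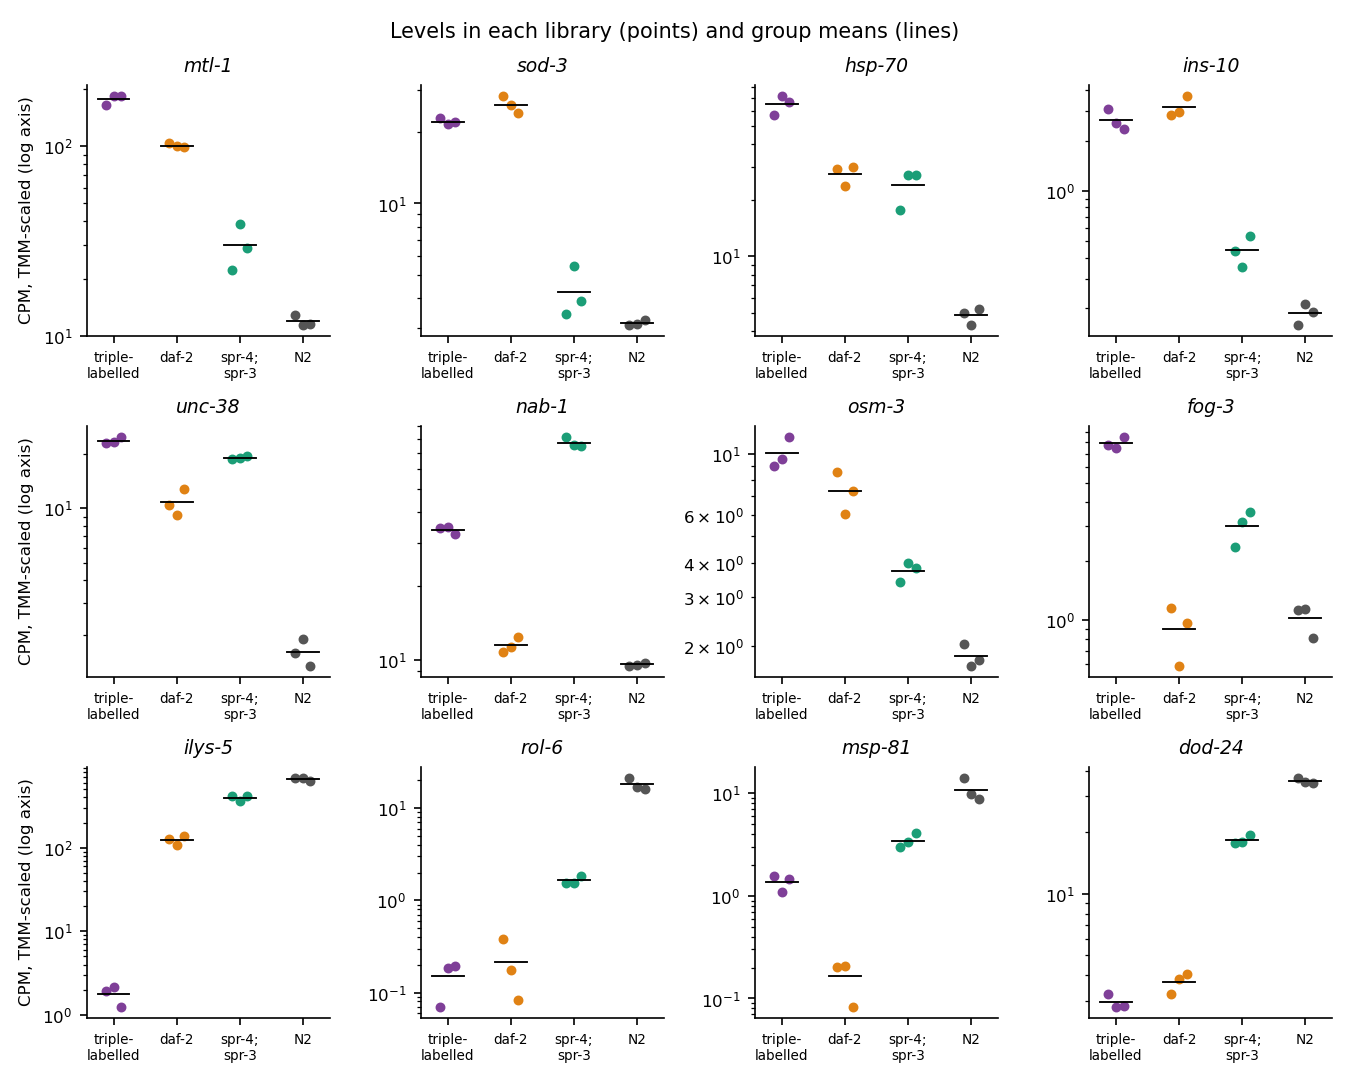
CPM of 12 genes in each library (points) with group means (lines), on log axes that differ between panels, with the groups from left to right triple-labelled, daf-2, the spr double mutant and last N2. mtl-1, hsp-70 and osm-3 are highest in triple-labelled libraries, unc-38 is low in N2 alone, nab-1 is highest in the spr double mutant, fog-3 is highest in triple-labelled libraries, and ilys-5 is lowest in triple-labelled libraries, below daf-2, the spr double mutant and N2. msp-81 is lowest in daf-2, not in triple-labelled libraries.

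Immune effectors held some of the widest changes among named genes, in both directions. ilys-5 (WBGene00017691, chromosome X, 6533490 to 6536840), an invertebrate-type lysozyme gene, had 1.91, 2.13 and 1.25 CPM in the triple-labelled libraries, against 684, 679 and 627 CPM in N2 (log2 change -8.56 ± 0.15, edgeR adjusted p = 2.4e-13). It was also far below daf-2, at 126, 109 and 137 CPM, and below the spr double mutant, at 416, 360.3 and 412 CPM, and no library of another group came within 10-fold of the triple-labelled level. Of 14 lysozyme genes tested 8 were higher and 5 lower. lys-7 (WBGene00003096, chromosome V, 3481432 to 3482600), a DAF-16 target, had 960.4, 936 and 1136 CPM in the triple-labelled libraries, against 137, 142 and 146 CPM in N2 (log2 change 2.83 ± 0.15, edgeR adjusted p = 1.2e-07). ilys-6 had 62 reads over the triple-labelled libraries and none over N2, at least 20.5-fold higher taking 3 reads over the group as the floor. The saposin-like protein genes, which encode pore-forming antimicrobial peptides, were higher in 16 of 25 and lower in 6. spp-9 (WBGene00004994, chromosome X, 11487784 to 11488203) had 18.6, 26.9 and 35.2 CPM in the triple-labelled libraries, against 0.0397, 0.0301 and 0.135 CPM in N2 (log2 change 8.59 ± 0.55, edgeR adjusted p = 6.6e-07). spp-12 (WBGene00004997, chromosome V, 13889816 to 13890327) had 19.7, 24.8 and 29.8 CPM in the triple-labelled libraries, against 0.139, 0.271 and 0.377 CPM in N2 (log2 change 6.62 ± 0.37, edgeR adjusted p = 7.6e-08). In N2 these genes had CPM under 1 in every library.

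Epidermal antimicrobial peptide genes were higher in 28 of 41 tested members and lower in 12, and the caenacin (cnc) genes rose in 8 of 8. The fipr genes did not rise as a family, with 7 of 16 higher, 8 lower and a median of -0.32. abf-2 (WBGene00000013, chromosome I, 3885631 to 3885888), a defensin-like antibacterial factor, had 16.7, 16.21 and 21.2 CPM in the triple-labelled libraries, against 0.516, 0.602 and 0.538 CPM in N2 (log2 change 5.04 ± 0.23, edgeR adjusted p = 7.8e-11). fipr-26 had 44.2, 42.2 and 49.3 CPM in the triple-labelled libraries, against 1.05, 0.934 and 1.7 CPM in N2 (log2 change 5.21 ± 0.26, edgeR adjusted p = 3.3e-08). fipr-23 had 16.5, 18.8 and 21.7 CPM in the triple-labelled libraries, against 0.318, 0.301 and 0.592 CPM in N2 (log2 change 5.56 ± 0.31, edgeR adjusted p = 2e-08). All 3 genes were higher in the triple-labelled libraries than in daf-2 (log2 changes 1.03, 1.11 and 0.63). Genes of the pals family, known for their response to microsporidia and viruses, were higher in 14 of 23 and lower in 1, with pals-39 (WBGene00008301, chromosome V, 12441663 to 12443854) at 11.2, 10.9 and 11.1 CPM in the triple-labelled libraries, against 0.417, 0.181 and 0.511 CPM in N2 (log2 change 4.85 ± 0.26, edgeR adjusted p = 2.3e-10). F-box A genes were higher in 71 of 121 and lower in 14, with fbxa-135 at 6.31, 6.36 and 6.98 CPM in the triple-labelled libraries, against 0.139, 0.211 and 0.161 CPM in N2 (log2 change 5.28 ± 0.21, edgeR adjusted p = 7.5e-15). C-type lectin genes did not follow, with 41 of 120 higher and 55 lower, and clec-10 (WBGene00015403, chromosome II, 402678 to 404180) had 0.489, 0.399 and 0.415 CPM in the triple-labelled libraries, against 14.2, 14.9 and 13.6 CPM in N2 (log2 change -5.01 ± 0.15, edgeR adjusted p = 7.5e-17). Below the filter were 15 of 38 pals, 48 of 169 F-box A and 117 of 237 C-type lectin genes, of which these tallies say little. Of the cathepsin and aspartyl proteases 12 of 25 rose and 9 fell, against 35.4% higher and 33.3% lower over all tested genes. The cathepsin B-like gene cpr-5 (WBGene00000785, chromosome V, 1132598 to 1134036) had 3.87, 3.57 and 3.76 CPM in the triple-labelled libraries, against 149, 131 and 115 CPM in N2 (log2 change -5.14 ± 0.13, edgeR adjusted p = 1.4e-11), whereas cpr-2 had 3.35, 5.83 and 6.5 CPM in the triple-labelled libraries, against 0.0992, 0.0301 and 0.0538 CPM in N2 (log2 change 6.23 ± 0.37, edgeR adjusted p = 2.2e-11).

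Cuticle collagens held many of the large falls. The cuticle is rebuilt at each larval moult, and collagen genes peak in waves before it. Of 128 tested col genes 78 were lower and 33 higher, 67 and 15 of them over 2-fold, with a median of -1.25. Of 21 collagens and matrix genes named for body shape (dpy, sqt, rol, bli, lon and ram) 18 were lower and 2 higher, with a median of -3.98. rol-6 (WBGene00004397, chromosome II, 8733050 to 8734239), a collagen whose mutants roll as they move, had 0.0699, 0.186 and 0.195 CPM in the triple-labelled libraries, against 21.3, 16.8 and 16.3 CPM in N2 (log2 change -6.91 ± 0.23, edgeR adjusted p = 4.4e-15). sqt-1 (WBGene00005016, chromosome II, 11336693 to 11337837), another cuticle collagen, had 0.0699, 0.24 and 0.195 CPM in the triple-labelled libraries, against 24.2, 21.9 and 17.9 CPM in N2 (log2 change -6.99 ± 0.25, edgeR adjusted p = 2.3e-13). dpy-5, a collagen whose mutants are short, had 0.233, 0.399 and 0.317 CPM in the triple-labelled libraries, against 39, 32.7 and 29.1 CPM in N2 (log2 change -6.73 ± 0.48, edgeR adjusted p = 1.7e-06). Each of them had under 1 CPM in every triple-labelled library. col-49 had 1 read over the triple-labelled libraries and 671 over N2, a ratio of 675 towards N2 (95% counting interval 121 to 26696), and col-156 had none against 486, at least 163-fold lower. The list median was the same with col-156 at that bound. The exceptions among the shape genes were dpy-14 (log2 change 3.96) and dpy-17 (log2 change 1.19), named because they are the only 2 called higher.

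Other collagens rose. col-50 (WBGene00000627, chromosome I, 3651236 to 3652702) had 9.88, 11.9 and 10.1 CPM in the triple-labelled libraries, against 0.0794, 0.0301 and 0.0538 CPM in N2 (log2 change 7.44 ± 0.35, edgeR adjusted p = 2.1e-11). col-95 had 1439, 1741 and 1824 CPM in the triple-labelled libraries, against 951, 891 and 1013 CPM in N2 (log2 change 0.81 ± 0.090, edgeR adjusted p = 2.1e-06). Summed over all col genes, the share of counts was 2.92%, 2.97% and 2.89% in triple-labelled libraries, against 2.71%, 2.53% and 2.61% in N2, so every triple-labelled library lay above every N2 library. The shape-gene share was 0.00547%, 0.00671% and 0.00663% in triple-labelled libraries, against 0.0378%, 0.032% and 0.0273% in N2, with the order turned round. The same shape genes were lower in 19 of 21 cases in daf-2 against N2 and 17 in the spr double mutant against N2. All these contrasts share the N2 libraries, which stand highest for most of these genes. Moulting and apical matrix genes were split, 43 of 88 higher and 27 lower, near the background on the lower side. In this list lpr genes, which encode secreted lipocalins of the matrix, were lower in 6 of 7 and cutl genes, cuticlin-like, were higher in 16 of 25. lpr-4 had 0.116, 0.24 and 0.488 CPM in the triple-labelled libraries, against 10.2, 7.26 and 6.35 CPM in N2 (log2 change -4.82 ± 0.30, edgeR adjusted p = 5.5e-10). Hedgehog-related genes were lower in 21 of 40 and higher in 9, wrt genes in 8 of 9 downwards, and grl-7 had 0.0699, 0.0798 and 0.0733 CPM in the triple-labelled libraries, against 6.79, 7.29 and 5.27 CPM in N2 (log2 change -6.38 ± 0.27, edgeR adjusted p = 1.8e-14).

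**Figure D4:**
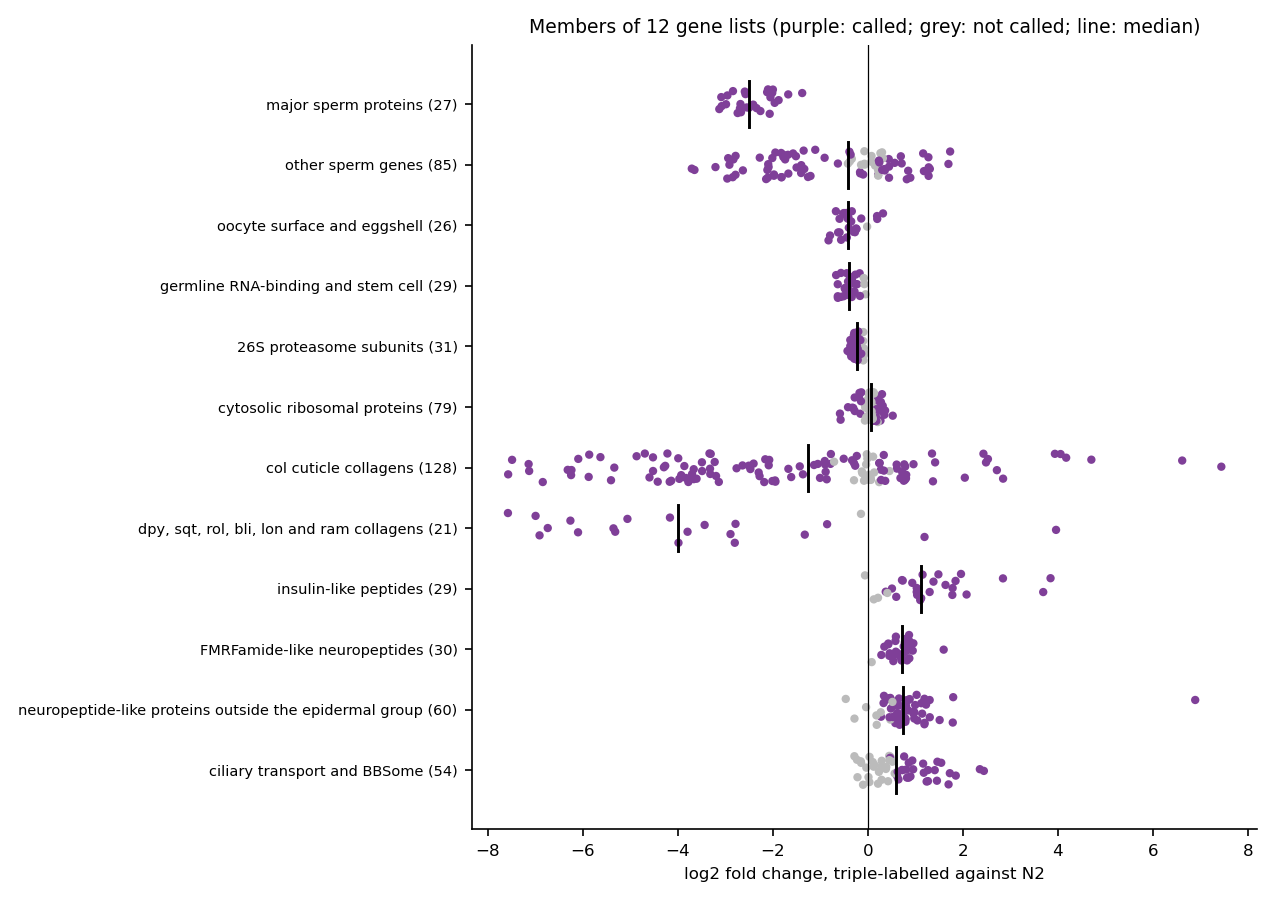
Log2 fold changes, triple-labelled over N2, of single members of 12 gene lists, with called genes in purple, other tested genes in grey and the list median as a black line. Numbers after the names are members tested, and genes with 3 or fewer reads in a group (col-49, col-156 and ins-25) are not drawn. Major sperm proteins lie wholly to the left, other sperm genes spread to both sides, proteasome and germline genes form narrow bands just left of zero, collagens spread widely, and peptide genes lie to the right.

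The germline lists were nearly all lower, by small amounts on the oocyte side. Of 29 germline RNA-binding and stem cell genes 26 were lower and 0 higher, with a median of -0.40, and their share of counts was 0.96%, 0.966% and 0.911% in triple-labelled libraries, against 1.26%, 1.27% and 1.25% in N2. glh-2 (WBGene00001599, chromosome I, 6513928 to 6517507), a Vasa-like helicase of the P granules, had 109, 114 and 111 CPM in the triple-labelled libraries, against 179, 174 and 163 CPM in N2 (log2 change -0.63 ± 0.043, edgeR adjusted p = 3.3e-11). car-1, an RNA-binding protein of germline granules, had 734, 772 and 693 CPM in the triple-labelled libraries, against 1213, 1154 and 1121 CPM in N2 (log2 change -0.67 ± 0.054, edgeR adjusted p = 4.8e-10). Oocyte surface and eggshell genes were lower in 22 of 26 and higher in 3. The yolk receptor gene rme-2 (WBGene00004374, chromosome IV, 5470026 to 5473174) had 409.7, 416 and 376 CPM in the triple-labelled libraries, against 744, 691 and 696 CPM in N2 (log2 change -0.83 ± 0.046, edgeR adjusted p = 1.1e-12). chs-1, the eggshell chitin synthase, had 222, 215 and 209 CPM in the triple-labelled libraries, against 388, 372 and 358 CPM in N2 (log2 change -0.79 ± 0.044, edgeR adjusted p = 9.3e-13). These groups did not overlap. For the oocyte list 23 members were lower against daf-2 and 24 against the spr double mutant. Meiotic axis and recombination genes were lower in 18 of 26 and higher in 4, and argonaute genes were lower in 14 of 19 and higher in 3. Early embryo genes were higher in 21 of 53 and lower in 11, close to the background on the higher side.

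Sperm genes did not move as one group. Major sperm proteins drive the crawling of worm sperm, and all 27 tested genes were lower, with a median of -2.49 and a summed share of 0.00469%, 0.00248% and 0.00416% of counts in triple-labelled libraries, against 0.0231%, 0.0194% and 0.0164% in N2. msp-81 (WBGene00003467, chromosome IV, 9836034 to 9836417) had 1.56, 1.09 and 1.47 CPM in the triple-labelled libraries, against 14.1, 9.76 and 8.69 CPM in N2 (log2 change -2.98 ± 0.20, edgeR adjusted p = 6.1e-10), but msp genes are near-identical copies and single values are uncertain. Of 85 other sperm genes 47 were lower and 23 higher. ssq genes were lower in 4 of 4, ssp genes in 7 of 8 and the gene for the sperm phosphatase gsp-3 by -1.77. The spe genes were higher in 8 and lower in 6 of 19, near the 35.4% higher and 33.3% lower over all tested genes. Among the risers, picked out after their values were seen, spe-9, a sperm surface protein needed for fertilization, had 0.606, 0.692 and 0.733 CPM in the triple-labelled libraries, against 0.337, 0.12 and 0.323 CPM in N2 (log2 change 1.31 ± 0.34, edgeR adjusted p = 0.0018). fer-1, a ferlin needed for membrane fusion during sperm activation, had 4.54, 3.7 and 4.4 CPM in the triple-labelled libraries, against 2.02, 1.39 and 2.1 CPM in N2 (log2 change 1.18 ± 0.15, edgeR adjusted p = 3.7e-07). spe-41, a sperm calcium channel, had 11.1, 12.5 and 12.58 CPM in the triple-labelled libraries, against 5.02, 5.66 and 5.49 CPM in N2 (log2 change 1.17 ± 0.095, edgeR adjusted p = 5.6e-10). Their triple-labelled libraries all lay above their N2 libraries.

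fog-3 (WBGene00001483, chromosome I, 10016765 to 10018121), which directs germ cells to become sperm, had 7.78, 7.45 and 8.52 CPM in the triple-labelled libraries, against 1.13, 1.14 and 0.807 CPM in N2 (log2 change 2.94 ± 0.17, edgeR adjusted p = 2.7e-12). fog-1, which acts with it, had 44, 46.5 and 49.9 CPM in the triple-labelled libraries, against 28.6, 27.1 and 27.9 CPM in N2 (log2 change 0.75 ± 0.057, edgeR adjusted p = 2.2e-10). Both were higher in every triple-labelled library. mab-3, a gene of male development, had 2.07, 1.49 and 1.37 CPM in the triple-labelled libraries, against 0.615, 0.813 and 0.404 CPM in N2 (log2 change 1.44 ± 0.25, edgeR adjusted p = 2.5e-05). xol-1, the earliest switch of male sex determination, had 2.89, 2.98 and 2.39 CPM in the triple-labelled libraries, against 1.25, 1.26 and 0.942 CPM in N2 (log2 change 1.25 ± 0.26, edgeR adjusted p = 0.00039). Of 23 sex determination genes 6 were higher and 12 lower, against 35.4% higher and 33.3% lower over all tested genes. The list as a whole thus leaned lower, although the genes named here are all risers. The tra genes were lower in 2 of 3 and the mog genes in 3 of 4, and the deepest fall in the list was -0.48 on the log2 scale. fog-3 levels were 1.15, 0.585 and 0.966 CPM in daf-2 and 2.36, 3.14 and 3.55 CPM in the spr double mutant, and the triple-labelled libraries exceeded both (log2 changes 3.12 ± 0.18 and 1.38 ± 0.15). For the major sperm proteins the order was another one, 27 of 27 higher than in daf-2 and 20 lower than in the spr double mutant, with summed shares of 0.000859%, 0.000535% and 0.000591% in daf-2 and 0.00542%, 0.00633% and 0.00808% in the double mutant.

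Peptide signalling was higher across the nervous system lists. FMRFamide-like neuropeptide genes were higher in 29 of 30 members and lower in 0, with a median of 0.73 and a share of 0.0369%, 0.0363% and 0.0374% of counts in triple-labelled libraries, against 0.022%, 0.0224% and 0.0221% in N2. Neuropeptide-like protein genes outside the epidermal group were higher in 52 of 60 and lower in 0. flp-1 (WBGene00001444, chromosome IV, 9144705 to 9146128), a neuropeptide that acts on locomotion, had 29.1, 28.7 and 29 CPM in the triple-labelled libraries, against 14.1, 14.3 and 16.3 CPM in N2 (log2 change 0.96 ± 0.064, edgeR adjusted p = 2.3e-11). flp-34 had 4.17, 4.2 and 4.25 CPM in the triple-labelled libraries, against 1.45, 1.26 and 1.43 CPM in N2 (log2 change 1.60 ± 0.13, edgeR adjusted p = 8.1e-10). nlp-39 (WBGene00008295, chromosome I, 12461656 to 12461895) had 11.5, 12.56 and 18.3 CPM in the triple-labelled libraries, against 0.159, 0.0301 and 0.135 CPM in N2 (log2 change 6.89 ± 0.33, edgeR adjusted p = 1.7e-10), by far the widest change among them. The enzymes that cut and pack these peptides rose too, in 12 of 15 genes with 0 lower, and the proprotein convertase gene egl-3 (WBGene00001172, chromosome V, 10169177 to 10173753) had 94.8, 89 and 91.7 CPM in the triple-labelled libraries, against 54.7, 52.6 and 54.3 CPM in N2 (log2 change 0.77 ± 0.045, edgeR adjusted p = 3e-12). Neuropeptide receptor genes were higher in 34 of 91 and lower in 6, near the background on the higher side and under it on the lower, with npr-26 at 3.63, 3.7 and 5.1 CPM in the triple-labelled libraries, against 0.774, 0.723 and 1.02 CPM in N2 (log2 change 2.30 ± 0.20, edgeR adjusted p = 2.5e-09). Against daf-2 16 FMRFamide-like genes were higher and against the spr double mutant 26, with 0 lower in both contrasts.

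The genes of fast transmission gave smaller and less even changes, with a few large ones. unc-38 (WBGene00006774, chromosome I, 4897620 to 4900974), a nicotinic acetylcholine receptor subunit of muscle and neurons, had 22.9, 23.2 and 24.8 CPM in the triple-labelled libraries, against 1.59, 1.9 and 1.35 CPM in N2 (log2 change 3.88 ± 0.12, edgeR adjusted p = 2e-16). Its neighbour icmt-1 (WBGene00017673, chromosome I, 4901918 to 4903264), a carboxyl methyltransferase gene that does not overlap it, had 16.40, 18.5 and 19.7 CPM in the triple-labelled libraries, against 0.258, 0.331 and 0.188 CPM in N2 (log2 change 6.13 ± 0.24, edgeR adjusted p = 4.5e-12). nab-1 (WBGene00003516, chromosome I, 4229570 to 4236115), the synaptic scaffold neurabin, had 34.5, 34.8 and 32.6 CPM in the triple-labelled libraries, against 9.43, 9.52 and 9.71 CPM in N2 (log2 change 1.83 ± 0.062, edgeR adjusted p = 4.7e-16). For all 3 genes no N2 library approached a triple-labelled one. nab-1 was highest in the spr double mutant, at 81.3, 75.1 and 74.8 CPM, and the triple-labelled libraries lay below that group (log2 change -1.18 ± 0.053) and above daf-2 (log2 change 1.57 ± 0.061). unc-38 and icmt-1 were also higher in daf-2 (log2 changes 2.76 and 5.19 over N2) and in the spr double mutant (log2 changes 3.57 and 4.90 over N2), with N2 the lowest of the groups.

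Across the whole nicotinic receptor list 14 of 38 were higher and 6 lower, near the background on the higher side and under it on the lower. Synaptic vesicle and release genes were higher in 14 of 30 and lower in 4. ric-19 (WBGene00004368, chromosome I, 3778089 to 3781690), a factor in dense-core vesicle maturation, had 9.41, 8.97 and 9.4 CPM in the triple-labelled libraries, against 3.2, 3.76 and 3.77 CPM in N2 (log2 change 1.38 ± 0.096, edgeR adjusted p = 3.8e-11). tom-1, the release inhibitor tomosyn, had 32.7, 31.5 and 29.9 CPM in the triple-labelled libraries, against 17.7, 17.6 and 17.5 CPM in N2 (log2 change 0.83 ± 0.055, edgeR adjusted p = 1.7e-11). Glutamate signalling genes were higher in 17 of 27 and lower in 2, with the glutamate transporter gene glt-5 (WBGene00001623, chromosome II, 9706481 to 9708885) at 13.7, 16.3 and 16.6 CPM in the triple-labelled libraries, against 2.74, 2.47 and 3.47 CPM in N2 (log2 change 2.42 ± 0.16, edgeR adjusted p = 7.3e-10). GABA genes were higher in 4 of 13 and lower in 0, monoamine genes were higher in 8 of 27 and lower in 6, and genes of acetylcholine synthesis, breakdown and muscarinic reception were higher in 3 of 11 and lower in 1. No share in these lists exceeded the background in either direction. Pan-neuronal identity genes were higher in 9 of 16 and lower in 3, while their summed share was 0.147%, 0.147% and 0.148% in triple-labelled libraries, against 0.149%, 0.149% and 0.148% in N2 (exact permutation p = 0.2). Touch receptor neuron genes were higher in 3 of 17 and lower in 4, both shares under the background.

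Few genes of the sodium leak and calcium channels passed against N2, and most passed against daf-2. Of 10 sodium leak and calcium channel genes 2 were higher and 1 lower against N2, and without triple-labelled replicate 1 the higher count was 1. Against daf-2 9 of the 10 were higher and 0 lower, and daf-2 against N2 had 9 lower. nca-2 (WBGene00003558, chromosome III, 4965571 to 4979738), a pore subunit of the sodium leak channel, had 6.97, 6.89 and 5.4 CPM in the triple-labelled libraries, against 2.82, 2.59 and 3.31 CPM in N2 (log2 change 1.14 ± 0.13, edgeR adjusted p = 1.4e-07), and stood at 1.51, 2.02 and 2.15 CPM in daf-2 and 8.03, 6.8 and 7.17 CPM in the spr double mutant. egl-19, the L-type calcium channel of muscle, had 12.4, 12.7 and 13 CPM in the triple-labelled libraries, against 16.9, 17.2 and 18.1 CPM in N2 (log2 change -0.45 ± 0.074, edgeR adjusted p = 1.6e-05). Potassium channel genes were higher in 27 of 70 and lower in 8, near the background on the higher side and under it on the lower.

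Cilia of sensory neurons gave 28 of 54 genes higher and 0 lower, with a median of 0.59. dyf-3 (WBGene00001119, chromosome IV, 3396581 to 3399231), an intraflagellar transport protein, had 33.2, 34.8 and 37.9 CPM in the triple-labelled libraries, against 9.83, 9.16 and 10.3 CPM in N2 (log2 change 1.85 ± 0.084, edgeR adjusted p = 6e-14). tub-1, the Tubby homologue, had 2.96, 3.99 and 4.32 CPM in the triple-labelled libraries, against 1.01, 0.572 and 0.511 CPM in N2 (log2 change 2.36 ± 0.22, edgeR adjusted p = 4.9e-09). osm-3, the kinesin of the distal cilium, had 9.06, 9.61 and 11.5 CPM in the triple-labelled libraries, against 2.02, 1.69 and 1.78 CPM in N2 (log2 change 2.44 ± 0.14, edgeR adjusted p = 1.4e-12), with 181 bases of exon shared with algn-14 on the same strand. No triple-labelled library overlapped N2 for these genes. dyf-3 and tub-1 were higher than in daf-2 (log2 changes 1.48 ± 0.082 and 2.32 ± 0.22), where they stood at 13.3, 14.2 and 10.5 and at 0.639, 0.966 and 0.663 CPM. Chemoreceptor genes could be tested in 95 of 1230 cases, and 51 were higher and 5 lower. A gene passes the filter through the group where it is high, so this count says little of the untested 1135 with few or no reads, and it moved to 142 with no filter and 14 at 1 CPM or more in 3 libraries.

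Markers of other tissues moved in both directions. Body wall muscle genes were lower in 15 of 31 and higher in 3, with shares of 0.91%, 0.811% and 0.835% in triple-labelled libraries, against 0.895%, 0.87% and 0.894% in N2 (exact permutation p = 0.4). The troponin I gene tni-1 had 13.2, 11.6 and 14.3 CPM in the triple-labelled libraries, against 30.7, 26.4 and 26 CPM in N2 (log2 change -1.09 ± 0.091, edgeR adjusted p = 1.5e-09). Intestine genes were lower in 12 of 21 and higher in 7, with the sodium-proton exchanger gene nhx-2 (WBGene00003730, chromosome II, 7690711 to 7693957) at 9.83, 8.89 and 8.52 CPM in the triple-labelled libraries, against 39.6, 38.1 and 32.8 CPM in N2 (log2 change -2.02 ± 0.088, edgeR adjusted p = 3.6e-14). Intestine genes together took 0.205%, 0.206% and 0.20% of counts in triple-labelled libraries, against 0.251%, 0.248% and 0.237% in N2, with no overlap. Pharynx genes were higher in 8 of 23 and lower in 10, near the background on the higher side. Their summed share was higher in every triple-labelled library than in any N2 library, 0.0787%, 0.0693% and 0.0714% in triple-labelled libraries, against 0.048%, 0.0483% and 0.0501% in N2. The pharyngeal myosin gene myo-1 fell by 1.26 on the log2 scale and lys-8 rose (log2 change 1.39 ± 0.072). Astacin protease genes were higher in 10 of 28 and lower in 7, near the background on the higher side and under it on the lower. The ribosomal RNA share of counts was 0.0431% ± 0.00245 in triple-labelled libraries and 0.0391% ± 0.00381 in N2, while daf-2 libraries, used in the side contrasts, held 0.166% ± 0.0158 (SD, n = 3 each).

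Large rises were not spread evenly over the genome. On chromosome V 21.1% of 3174 tested genes were called and over 2-fold higher, against 13.9% of all tested genes, and the shares on chromosomes I, II, III, IV and X were 10.2%, 14.6%, 10.6%, 12.4% and 12.7%. Large falls took 8.79% of genes on V, 10.1% on IV and 3.97% on III, against 7.66% overall. Within 1 Mb of daf-2 68.0% of 272 genes were called, against 66.8% on the rest of chromosome III. Around spr-4 the shares were 69.5% of 413 genes and 67.5% on the rest of chromosome I, and around spr-3 they were 59.5% of 257 genes and 64.8% on the rest of X. These are descriptions with no test.

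**Figure D5:**
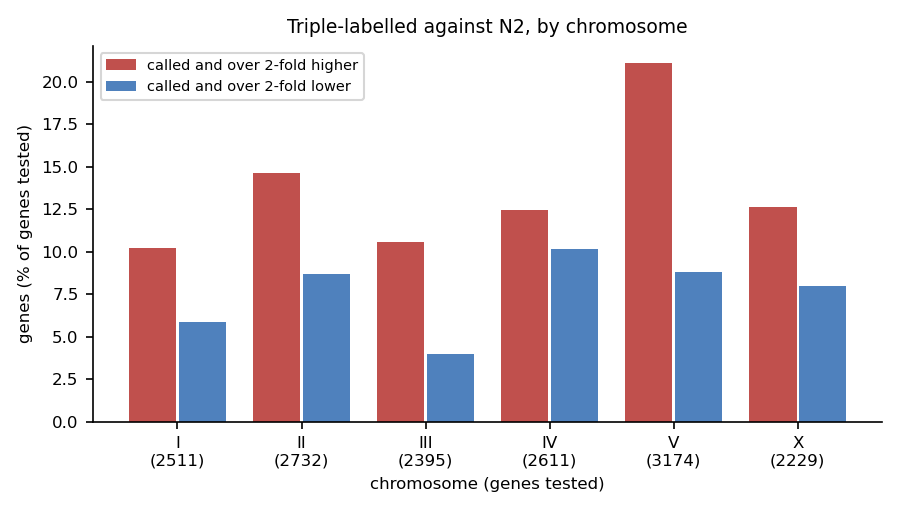
Percentage of tested genes on each nuclear chromosome that were called and over 2-fold higher (red) or over 2-fold lower (blue) in triple-labelled libraries against N2, with the number of genes tested in brackets. Chromosome V has the highest share of large rises, 21.1%, and chromosome III the lowest share of large falls, 3.97%.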

How the data were processed

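RNA from whole worms was made into stranded mRNA libraries and sequenced in paired ends, per the labels' protocols. The authors deposited raw counts for each gene as whole numbers with no scaling. Per the submitters' processing notes STAR, featureCounts 1.5.1 and the build WBcel235 were used. No source used here gives the STAR version, the strand setting or the handling of reads with several matches, so overlapping, antisense and near-identical genes are uncertain. Of 46739 genes 21518 had no read. Names and coordinates came from a WBcel235 annotation.

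The test was edgeR 4.0.16 (R 4.3.3), a robust quasi-likelihood fit of all 12 libraries with 8 residual degrees of freedom, after filterByExpr (minimum count 10) and TMM scaling, two-sided and adjusted by Benjamini-Hochberg over 15764 genes. CPM are TMM-scaled. An SE was taken as the size of the log2 change over the root of the F statistic. Shares of summed counts were compared by a two-sided exact permutation test. Counting intervals are 95% and, like the floor of 3 reads, cover counting error only. Simulated counts for this comparison held 200 changed genes among 15439, of which the fit found 96% at 4-fold and 71% at 1.5-fold, with 5.65% of its calls false. In the data 68.7% of tested genes were called, far more than were changed in the simulation, so these rates need not hold here.

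The 65 gene lists and the comparison were chosen with earlier results of these data known. Named genes are daf-2, spr-3, spr-4, hop-1 and daf-16, the 12 largest called rises and falls among genes with a symbol rather than a clone name (average log2 CPM of 1 or more, groups apart), the 10 largest CPM gains and losses, and in each list the called members of largest change, 4 at most. Others in the text, as exceptions or to fill out a family, were chosen after their values were seen. The labels call the samples biological replicates. Alternatives were RLE size factors, library totals, leaving the filter out, a filter of 1 CPM or more in 3 libraries, limma-voom (limma 3.58.1), DESeq2 1.42.0, the 6 libraries alone, the replicate number as a block, and leaving out each library.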

Additional observations from a re-analysis of the deposited data

How the results depend on the processing

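Across the alternatives named in the processing summary, genes called higher in triple-labelled libraries numbered 4856 to 5901 and genes called lower 4592 to 5686. Calls over 2-fold higher numbered 1621 to 2659. Calls over 2-fold lower fell to 716 at 1 CPM or more in 3 libraries, which tests fewer genes. Ribosomal protein genes called higher numbered 40 with the 6 compared libraries alone and 17 to 36 when 1 library was left out, against 22 in the full fit. The sodium leak and calcium channel genes called higher numbered 1 to 2 when 1 library was left out. Chemoreceptor genes called higher numbered 142 with no filter and 14 at 1 CPM or more in 3 libraries, settings that change how many are tested. The share of counts on acyl-CoA genes differed by 0.00351 percentage points (triple-labelled minus N2), and by -0.00297 to 0.00706 when 1 library was left out, turning negative without N2 replicate 3. For the ribosomal and acyl-CoA values the cause was not tested. Of 1446 recomputed counts and shares, 1438 stayed within the bounds set for them. Of 5474 recomputed values of named genes none changed direction and 24 lost the call, all in hop-1, ccb-1, glr-3, gbb-2, cho-1 and mec-2. Same-numbered triple-labelled and N2 libraries correlated by 0.0122 to 0.0332 in their deviations from the group means, and other-numbered ones by -0.0331 to 0.0115. With so few pairs and such small values, this cannot decide whether the numbers pair the samples. With the replicate block 5534 genes were called higher and 5185 lower, 2187 and 1200 of them over 2-fold. The median log2 fold change of all tested genes was -0.014 with RLE size factors and 0.00048 with library totals, against 0.02 in the main fit. With 3 libraries a group, genes of few reads carry wide intervals, and a gene with no read in a group has only a bound.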
